A study of Mus musculus with 6 samples.

Results

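The expression of 9 genes encoding subunits of the Polycomb repressive complexes was followed on arrays of long-term haematopoietic stem cells (LT-HSC) of the mouse. The genes were Ezh1, Ezh2, Eed and Suz12 of Polycomb repressive complex 2 (PRC2) and Bmi1, Cbx2, Cbx7, Cbx8 and Ring1 of Polycomb repressive complex 1 (PRC1). They were chosen by name, and every probe set annotated to 1 of them alone was used, 23 of the 45037 probe sets on the array and 9 of 18193 genes. The study compared 3 arrays from mice labelled knockout for Irf8 (Irf8-/-) with 3 arrays from wildtype mice (Irf8+/+); Irf8 encodes an interferon regulatory factor needed for monocytes and dendritic cells. All 6 samples were bone marrow cells that were negative for lineage markers and CD48 and positive for Sca-1, c-kit and CD150, labelled 3 weeks and untreated. The labels call the samples biological replicates and give neither the strain, the deleted part of Irf8 nor the number of mice behind an array, so p-values measure only the spread between these samples.

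Polycomb complexes keep genes silent by marking chromatin. PRC2 sets the H3K27 methyl mark on histone H3: EZH1 or EZH2 is the methyltransferase, EED binds the finished mark and stimulates the enzyme, and SUZ12 holds the complex together. Canonical PRC1 binds that mark through a CBX protein and ubiquitinates histone H2A through RING1 or RNF2, whose activity depends on a PCGF partner such as BMI1. In mouse blood stem cells Bmi1 and Ezh1 are known for sustaining self-renewal, and the Cdkn2a locus is a well-known target of BMI1.

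The arrays were comparable in overall level, with medians of 4.85 to 4.96 on the log2 scale of the deposited values. Irf8 itself did not separate the groups: its brighter probe set, 1448452_at, read 4.91, 6.39 and 6.50 in the knockout arrays, against 4.98, 6.43 and 5.16 in the wildtype arrays. That probe set lay below the median level of all probe sets on 2 of the 6 arrays. The other, 1416714_at, lay below it on 4 and averaged 4.64 in knockout and 4.41 in wildtype. Where the Irf8 probes lie relative to the deletion is not stated in the labels, so directions refer to arrays as labelled. All 10 measured stem cell markers of 12 listed had a mean above the median level of all probe sets (5.04), but Slamf1, which encodes the CD150 used in the sort, read 9.02, 8.49 and 4.71 in the knockout arrays and 5.97, 9.11 and 6.63 in the wildtype arrays. Hoxb5 lay below that level on 4 of the 6 arrays. Of the 10 markers 6 had the lower and 4 the higher knockout mean. The summed level of the 10, as log2, was 12.32 to 13.61 in knockout, lowest in knockout replicate 3, and 13.06 to 13.40 in wildtype. The 14 measured neutrophil and granule genes of 15 listed all had a higher mean in the knockout arrays, and their summed level, as log2, ran from 14.21 to 15.87 there and from 12.41 to 13.06 in wildtype. Of the 14 genes 12 lay above the median level. The brightest were S100a8, at 12.66 in knockout and 10.54 in wildtype, and S100a9, at 13.17 and 11.16. The groups overlapped in Elane, Mpo, Prtn3, Ctsg, Ltf, Ngp, Lcn2, Mmp9 and Ms4a3, but not in S100a8, S100a9, Camp, Mmp8 and Fcnb. The summed level of 8 monocyte and dendritic cell genes was 8.71 to 10.73 in knockout and 8.09 to 9.94 in wildtype, and that of 7 B cell genes 7.95 to 8.83 in knockout and 8.76 to 9.98 in wildtype. Of these, 4 of the 8 and 2 of the 7 lay above the median level. The knockout mean was the higher in 4 of the 8 and in 3 of the 7. Such sums weigh the brightest genes most: Flt3 averaged 9.03 in knockout and 6.58 in wildtype, and Cd79b 7.11 and 8.52. None of the 14 neutrophil genes passed in limma after adjustment, and the part of neutrophil RNA in the Polycomb values was not tested. Since these are bulk samples, fewer cells of a type and less RNA per cell cannot be told apart.

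Most Polycomb transcripts were well within the measured range, and none passed a test between genotypes after correction for the number of probe sets. Of the 23 probe sets, 19 had a mean level above the median of all probe sets and 4 lay below it. In limma with Benjamini-Hochberg adjustment 0 of the 23 passed a threshold of 0.05, as did 0 of all 45037 (0.0%), and the adjusted p of the 23 lay between 0.906 and 0.994. At an unadjusted p under 0.05 there were also 0 of 23, against 4.7% of all probe sets (2.38% higher and 2.32% lower in knockout). The knockout mean was the higher in 12 probe sets (52.2%) and the lower in 11, against 56.7% higher among all probe sets. The median difference, knockout minus wildtype, was 0.05 over the 23, beside 0.06 over all probe sets on the log2 scale. Above the median level it was 0.17 for the 19 members and -0.009 for all probe sets, of which 49.5% were higher in knockout. The groups did not overlap in 2 of the 23 probe sets (8.7%), against 10.9% of all probe sets. Of these, 1 was higher in knockout (Ezh2), against 6.66% of all probe sets, and 1 was lower (Cbx7), against 4.23%. Replicates of the Polycomb probe sets were spread widely: the median SD within a group was 1.05 for the 19 brighter ones, beside 0.82 for all probe sets above the median level.

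**Figure D1:**
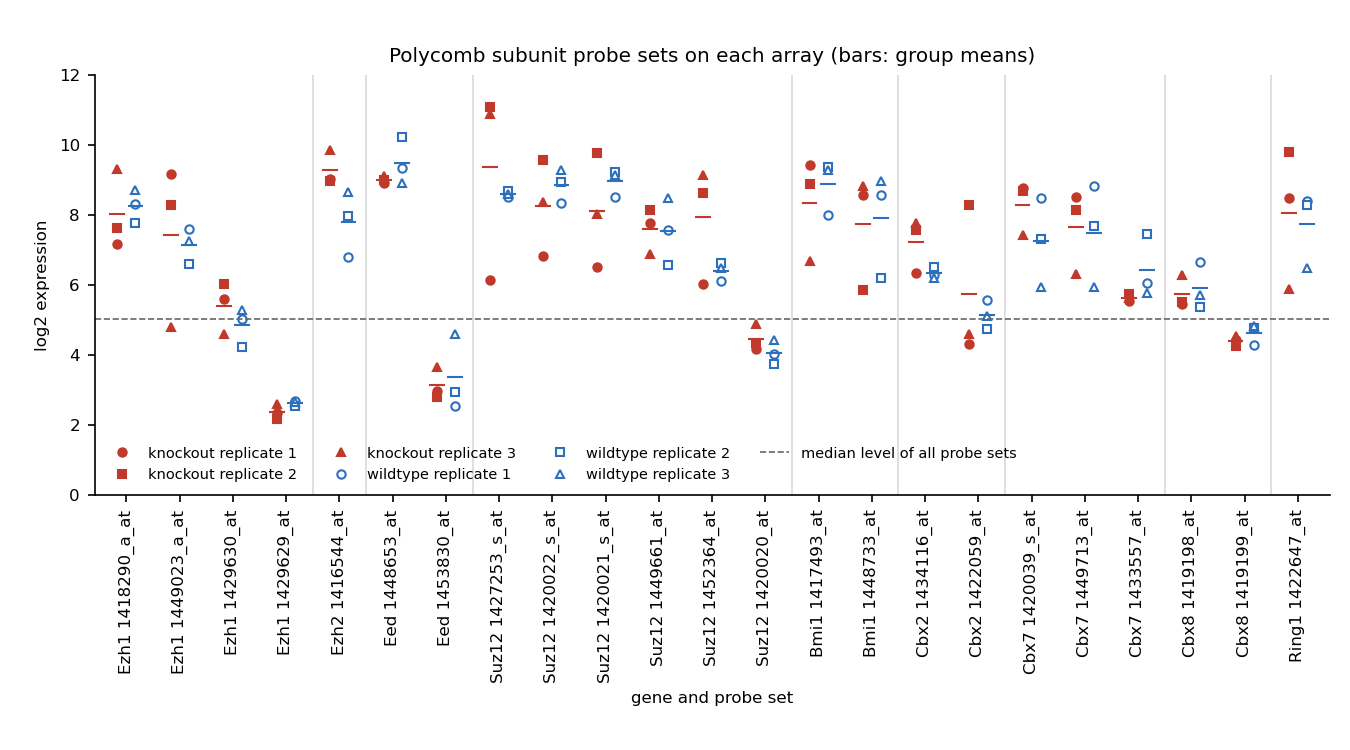
Log2 expression of the 23 Polycomb probe sets (x axis: gene and probe set) on each array, with filled red symbols for knockout, open blue symbols for wildtype, short bars for group means and a dashed line at the median level of all probe sets (5.04). The groups separate fully only for Ezh2, where the 3 knockout arrays sit between 8.98 and 9.85, and, by a small gap, for Cbx7 1433557_at.

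Ezh2, the methyltransferase of PRC2 that predominates in dividing cells, was the member furthest towards a difference. Its single probe set, 1416544_at, read 9.02, 8.98 and 9.85 in the knockout arrays, against 6.79, 7.97 and 8.67 in the wildtype arrays. Every knockout array lay above every wildtype array, with the gap narrowest between knockout replicate 2 and wildtype replicate 3. The means were 9.29 ± 0.49 in knockout and 7.81 ± 0.95 in wildtype (log2, SD, n = 3 each), which gave a difference of 1.48 (SE 0.62) or 2.78-fold. The 95% interval of that difference ran from -0.01 to 2.96, the unadjusted p in limma was 0.0511 and the adjusted p was 0.906. An array left out at a time moved the difference between 0.97, without wildtype replicate 1, and 1.91, without wildtype replicate 3, with adjusted p of 0.8 to 0.985 in limma. In the knockout arrays where Ezh2 was higher, the summed level of 13 measured proliferation genes was 13.19 to 13.94, against 13.71 to 14.40 in wildtype. Of these 13 genes 8 had the lower and 5 the higher knockout mean, with a median difference of -0.27. The neutrophil genes named above had a median difference of 2.27 in the same arrays, and the part of either list in the Ezh2 values was not tested.

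The start-site regions of Ezh2 and of its paralogue Ezh1 are shown because Ezh2 had the smallest unadjusted p of the 23 probe sets, with groups that did not overlap, and its promoter is known to respond to E2F factors in cycling cells. Each stretch runs from 100 bases before to 20 bases after the RefSeq start on GRCm38.p6, 5′ to 3′ on the gene's strand, at chr6:47595011-47595130 (minus strand) for Ezh2 and chr11:101226444-101226563 (minus strand) for Ezh1. Capitals mark matches to the CCAAT box (CCAAT or its reverse complement ATTGG) and to the E2F motif (TTTCCCGC, TTTCGCGC, TTTGCCGC or TTTGGCGC, either strand).
Ezh2: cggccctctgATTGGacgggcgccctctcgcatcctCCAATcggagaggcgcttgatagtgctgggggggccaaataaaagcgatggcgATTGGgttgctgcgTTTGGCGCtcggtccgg
Ezh1: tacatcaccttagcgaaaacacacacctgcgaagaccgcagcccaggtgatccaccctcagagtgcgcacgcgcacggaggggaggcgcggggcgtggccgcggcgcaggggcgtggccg
The Ezh2 stretch held 3 CCAAT boxes and 1 E2F match, which starts at base 4 of the transcript, while the Ezh1 stretch held 0 of either. Over the full 300-base RefSeq windows, which were found for 8 of the 9 genes (all but Cbx2), an E2F match occurred in Ezh2 and Suz12 and in 2.27% of 32851 windows of all genes, and a CCAAT box in 5 members and in 37.4% of all windows. A GC box (GGGCGG, either strand) occurred in 5 members, Suz12, Bmi1, Cbx7, Cbx8 and Ring1, and in 35.7% of all windows. The core of the interferon response element (GAAA, any 2 bases, GAAA) and the composite element of ETS and interferon regulatory factors (GGAA, any 2 bases, GAAA) were found on neither strand in the 8 windows, against 3.44% and 2.71% of all windows. These matches are descriptions of letters and not measured binding sites; the motifs were picked with the expression values known.

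Ezh1, the methyltransferase typical of resting cells, gave different answers from probe set to probe set. Its brightest, 1418290_a_at, read 7.17, 7.64 and 9.31 in the knockout arrays, against 8.32, 7.77 and 8.72 in the wildtype arrays. Another probe set built on the same transcript record, 1449023_a_at, read 9.17, 8.30 and 4.81 in the knockout arrays, against 7.61, 6.59 and 7.25 in the wildtype arrays. Knockout replicate 3 was thus the highest of the 6 arrays in one and the lowest in the other, and the correlation between the pair over the 6 arrays was -0.84. The differences were -0.23 (SE 0.69) and 0.28 (SE 1.16) on the log2 scale; without knockout replicate 1 their signs turned, to 0.20 and -0.59, and without knockout replicate 2 the second was -0.15. The other probe sets were dimmer: 1429630_at averaged 5.41 ± 0.72 in knockout and 4.85 ± 0.56 in wildtype (SD, n = 3 each), and 1429629_at reached at most 2.68, far below the median level. That last one read 2.34, 2.18 and 2.59 in the knockout arrays, against 2.68, 2.55 and 2.66 in the wildtype arrays, so the groups overlapped by a hair.

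Eed, the subunit that reads the methyl mark, was level among knockout arrays and more scattered in wildtype. Probe set 1448653_at read 8.91, 9.01 and 9.11 in the knockout arrays, against 9.33, 10.22 and 8.92 in the wildtype arrays, a difference of -0.48 (SE 0.45, 95% interval -1.56 to 0.59). Without wildtype replicate 2, the highest array, it was -0.12, and without wildtype replicate 3 it was -0.77. The groups overlapped through wildtype replicate 3, which lay between the knockout arrays. The other probe set, 1453830_at, was below the median level on all 6 arrays and averaged 3.14 ± 0.47 in knockout and 3.36 ± 1.09 in wildtype (SD, n = 3 each); its difference of -0.21 turned to 0.41 without wildtype replicate 3.

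Suz12, the scaffold of PRC2, scattered widely among the knockout arrays. The brightest of its 6 probe sets, 1427253_s_at, read 6.13, 11.09 and 10.89 in the knockout arrays, against 8.52, 8.69 and 8.59 in the wildtype arrays. The wildtype arrays lay close together, whereas knockout replicate 1 lay below all of them and the other knockout arrays far above. Its partner on the same record, 1452364_at, read 6.02, 8.64 and 9.15 in the knockout arrays, against 6.11, 6.62 and 6.50 in the wildtype arrays. The pair correlated at 0.89 over the 6 arrays, and their differences of 0.77 (SE 1.32) and 1.53 (SE 0.88) became 2.39 and 2.49 without knockout replicate 1, with adjusted p of 0.555 and 0.741; without knockout replicate 2 the first was -0.09.

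Another pair of Suz12 probe sets on a shared record put knockout replicate 1 lowest as well, and knockout replicate 2 highest, but their knockout means were the lower ones. In 1420021_s_at the values were 6.52, 9.78 and 8.02 in knockout, against 8.51, 9.24 and 9.13 in wildtype, and 1420022_s_at followed it at a correlation of 0.98. Their differences were -0.86 (SE 0.85) and -0.61 (SE 0.76), and without knockout replicate 1 they were -0.06 and 0.11. The fifth, 1449661_at, averaged 7.60 ± 0.64 in knockout and 7.55 ± 0.96 in wildtype (SD, n = 3 each), and its difference of 0.05 was below 0 without knockout replicate 1, knockout replicate 2 or wildtype replicate 2. The dimmest, 1420020_at, lay below the median level on all 6 arrays, at 4.46 ± 0.38 in knockout and 4.07 ± 0.33 in wildtype. Suz12 thus had 4 probe sets with a higher and 2 with a lower knockout mean, the mean of all 6 gave a difference of 0.21, and 3 of the 6 are of the _s_at type, whose probes match several transcripts that may come from different genes.

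**Figure D2:**
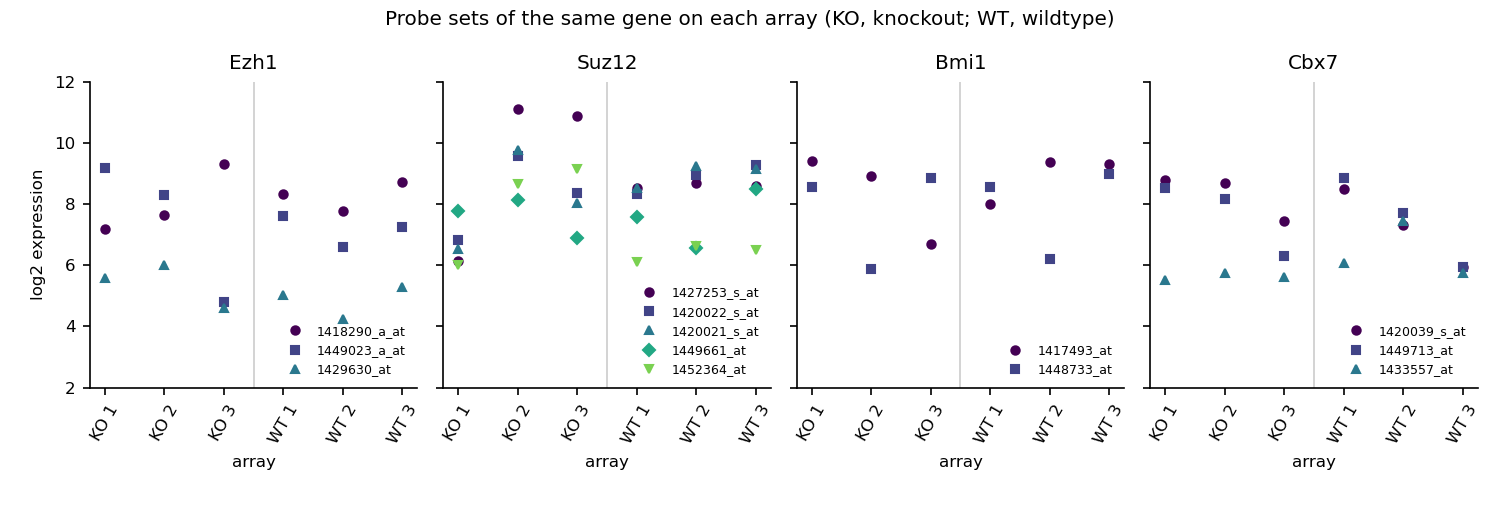
Log2 expression (y axis) of the probe sets above the median level for Ezh1, Suz12, Bmi1 and Cbx7 on each of the 6 arrays (x axis), 1 symbol per probe set. Symbols of a gene do not always move together from array to array: the brightest Ezh1 probe set is highest in knockout replicate 3 at 9.31 while another is lowest there at 4.81, and the pair of Bmi1 probe sets part in knockout replicate 2, at 8.90 and 5.86.

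Bmi1, the PCGF partner best known for stem cell self-renewal, passed in neither of its probe sets. The brighter, 1417493_at, read 9.42, 8.90 and 6.70 in the knockout arrays, against 8.01, 9.37 and 9.30 in the wildtype arrays. Knockout replicate 3 was the lowest of the 6, and without it the difference of -0.55 (SE 0.83) turned to 0.27. The second, 1448733_at, read 8.56, 5.86 and 8.84 in the knockout arrays, against 8.57, 6.21 and 8.97 in the wildtype arrays. Here replicate 2 was the low array of both groups, and the difference of -0.16 (SE 1.09) had a 95% interval from -2.79 to 2.47; it turned to 0.79 without knockout replicate 2, 0.37 without wildtype replicate 3 and 0.17 without wildtype replicate 1. Both probe sets cite the same transcript record, and their correlation over the 6 arrays was -0.37.

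Ring1, which encodes an E3 ligase for histone H2A, had 1 probe set and its spread lay within rather than between genotypes. Probe set 1422647_at read 8.48, 9.80 and 5.88 in the knockout arrays, against 8.40, 8.29 and 6.49 in the wildtype arrays. Replicate 3 was the lowest in each group. The difference was 0.32 (SE 1.11, 95% interval -2.35 to 3.00), and it turned to -0.55 without knockout replicate 2 and to -0.29 without wildtype replicate 3.

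Of the CBX proteins, which bring PRC1 to methylated chromatin, Cbx2 had the higher knockout mean in both probe sets and Cbx8 the lower one in both, with neither passing. Cbx2, a subunit of PRC1 that compacts chromatin, read 6.33, 7.56 and 7.76 in the knockout arrays with 1434116_at, against 6.28, 6.52 and 6.20 in the wildtype arrays. Knockout replicate 1 lay inside the wildtype range and the other knockout arrays above it, for a difference of 0.88 (SE 0.55); without knockout replicate 1 it was 1.32 (adjusted p = 0.851 in limma). In its other probe set, 1422059_at, knockout replicate 2 stood alone at 8.28 while the remaining 5 arrays lay between 4.31 and 5.57, and without that array the difference of 0.58 turned to -0.69. Cbx8 read between 5.36 and 6.65 over the 6 arrays in 1419198_at and between 4.25 and 4.84 in 1419199_at, with differences of -0.16 (SE 0.51; 0.22 without wildtype replicate 1) and -0.22 (SE 0.28). The second of these lay below the median level on all arrays.

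Cbx7, a CBX protein reported to favour self-renewal in mouse blood stem cells, had probe sets on both sides of 0. The 1420039_s_at values were 8.78, 8.69 and 7.44 in the knockout arrays, against 8.50, 7.32 and 5.93 in the wildtype arrays, a difference of 1.05 (SE 0.80; 1.68 without wildtype replicate 1 and 0.39 without wildtype replicate 3). The sister probe set on the same record, 1449713_at, read 8.52, 8.15 and 6.31 in knockout, against 8.84, 7.69 and 5.95 in wildtype, a difference of 0.17 (SE 0.95). Replicate 3 was the lowest of its group in both, in knockout and in wildtype, and the sign of the second turned without knockout replicate 1 (-0.26), knockout replicate 2 (-0.08) or wildtype replicate 3 (-0.60). The third, 1433557_at, built on another record, read 5.53, 5.74 and 5.63 in the knockout arrays, against 6.06, 7.45 and 5.76 in the wildtype arrays. All knockout arrays were lower there, but knockout replicate 2 and wildtype replicate 3 were 5.74 and 5.76, and the difference of -0.79 (SE 0.56) had an adjusted p of 0.906 and was -0.27 without wildtype replicate 2. The mean of the 3 Cbx7 probe sets gave a difference of 0.14.

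**Figure D3:**
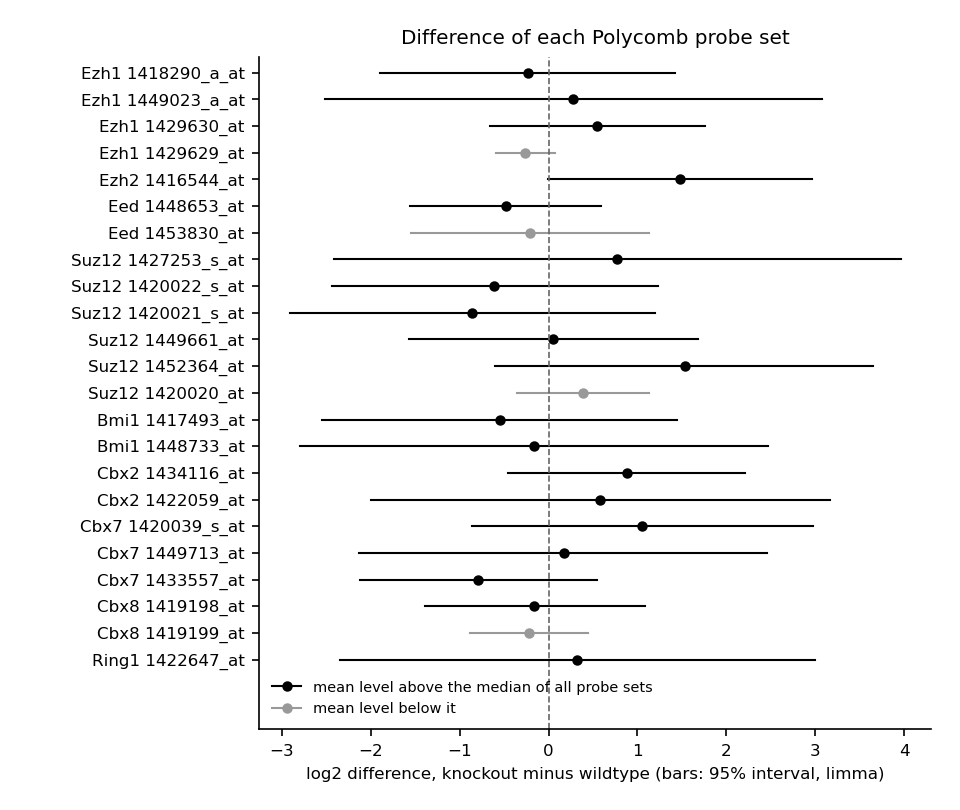
Log2 difference, knockout minus wildtype (x axis), of each of the 23 Polycomb probe sets (rows), with 95% intervals from limma; black marks probe sets with a mean above the median level and grey those below it. Every interval includes 0, that of Ezh2 (-0.01 to 2.96) by the smallest margin, and probe sets of Ezh1, Suz12 and Cbx7 lie on both sides of 0.

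Probe sets of the same Polycomb gene moved together only in part. Among the 18 pairs of probe sets of 1 gene that both lay above the median level, the correlation over the 6 arrays was below 0 in 6 pairs (33.3%) and its median was 0.24; over 13691 such pairs of all genes the median was 0.16 and 40.3% were below 0. Of the 18 pairs, 8 had differences of the same sign. The 5 pairs that cite the same record ran from -0.84 for Ezh1 to 0.98 for Suz12. These correlations rest on 6 arrays, whose probe sets share an amplification and a scaling, and are given as descriptions. By array, knockout replicate 1 held the lowest value of 8 of the 19 brighter probe sets, and knockout replicate 2 the highest value of 6. Any other array held 1 to 3 lowest and 2 to 4 highest values. These counts are not independent: the 8 included Suz12 1427253_s_at, 1452364_at, 1420021_s_at and 1420022_s_at, which form pairs on shared records. All of these but 1452364_at were also among the 6.

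The genes most like the brightest probe set of a Polycomb member over the 6 arrays were picked by Pearson correlation. They came from 11197 genes above the median level, each read by its brightest probe set. For Ezh2 they were Msi1 (0.9905), Hapln2 (0.9848) and Ly6d (0.9845). For Ezh1 they were Tcaf1 (0.9976), Tab1 (0.9954) and Whamm (0.9910), and for Bmi1 they were Rictor (0.9927), Fiz1 (0.9890) and Zfp652 (0.9876). With 6 arrays high values are common: 106, 113 and 161 genes exceeded 0.9 for Ezh2, Ezh1 and Bmi1 in that order. These are matches to 1 probe set and not to the gene. Another probe set on the same record correlated with the brightest at -0.84 for Ezh1 and -0.37 for Bmi1.

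The 5 wider Polycomb lists held 52 further genes: other PRC2 and PRC1 genes, genes that oppose or remove the marks, and reported targets. Of these genes 49 were measured, each by its brightest probe set. In limma 0 of 49 passed after adjustment, 1 had an unadjusted p under 0.05, against 4.31% of all genes read this way, and the groups did not overlap in 2 (4.08%), against 10.9% of all genes. The 7 other PRC2 genes had a median difference of -0.02, beside 0.07 over all genes. Jarid2, an accessory subunit that helps recruit PRC2, read 10.45, 10.08 and 10.54 in the knockout arrays, against 8.80, 10.13 and 9.05 in the wildtype arrays, a difference of 1.03 (SE 0.43). Only wildtype replicate 2 reached the knockout range, and of its other 2 probe sets 1 had a higher and 1 a lower knockout mean; the mean of all 3 gave 0.42. Phf1, a Polycomb-like accessory protein, differed by 0.55 (SE 0.51; 0.17 without wildtype replicate 3). Rbbp4, a histone-binding subunit, hardly varied in its brightest probe set, at 12.24 ± 0.07 in knockout and 12.28 ± 0.08 in wildtype (SD, n = 3 each). The 95% interval of that difference of -0.05 ran from -0.30 to 0.21. Its other 3 probe sets had the lower knockout mean as well, by up to -0.52, and the mean of all 4 gave -0.24.

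Of 15 other measured PRC1 genes, 12 had the lower mean in knockout and 3 the higher one. Their median difference was -0.41, beside 0.07 over all genes. Among all probe sets above the median level 49.5% had the higher knockout mean. Rnf2, Pcgf2, Pcgf5, Pcgf6, Yaf2, Bcor, Scmh1 and Scml2 were lower here but higher in at least 1 other probe set. The other probe set of Cbx6, Phc2 and Kdm2b was lower as well. Phc3, a polyhomeotic subunit of canonical PRC1, was the exception in size: it read 8.89, 9.23 and 7.95 in the knockout arrays, against 6.78, 7.85 and 7.35 in the wildtype arrays. The groups did not overlap, and the difference was 1.37 (SE 0.56, unadjusted p = 0.0492 and adjusted p = 0.906 in limma), with a second, dimmer probe set also higher in knockout. Pcgf1, the PCGF subunit of a variant PRC1, differed by -1.19 (SE 0.88; -0.46 without wildtype replicate 3), and Cbx6, another CBX gene, by -0.72 (SE 0.57; -0.17 without knockout replicate 2). Rnf2, the paralogue of Ring1, averaged 8.63 in knockout and 9.04 in wildtype, a difference of -0.41 (SE 0.46). Its other 4 probe sets had the higher knockout mean, and the gene was picked after its value was seen.

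Genes that oppose or remove the Polycomb marks did not pass either. Among 6 genes of the H3K27 demethylases and the H2A deubiquitinase complex the median difference was -0.11. Kdm6a, an H3K27 demethylase, differed by -0.73 (SE 0.91; 0.18 without knockout replicate 3), Bap1, the H2A deubiquitinase, by 0.49 (SE 0.58; 0.08 without wildtype replicate 3), and Asxl2, its cofactor, by -0.66 (SE 0.74; -0.10 without wildtype replicate 1). A dimmer probe set of Asxl2, 1460597_at, singled out for its values, read 8.49, 8.44 and 8.71 in the knockout arrays, against 5.18, 6.88 and 6.18 in the wildtype arrays. That difference of 2.47 (SE 0.58) had an unadjusted p of 0.00466 and an adjusted p of 0.906, and the 5 probe sets of Asxl2 spanned -1.37 to 2.47. The 9 measured Trithorax and MLL genes, whose complexes set the H3K4 methyl mark, had a median of -0.34. Men1 (menin, an MLL partner) read 4.18, 8.01 and 5.57 in the knockout arrays, against 7.45, 9.14 and 8.17 in the wildtype arrays, a difference of -2.34 (SE 1.05) with overlap through knockout replicate 2. It was -1.47 without knockout replicate 1, and the mean of its 3 probe sets, the highest of which differed by 0.27, gave -1.14. Kmt2a, which encodes MLL1, differed by -0.96 (SE 0.54; -0.58 without wildtype replicate 2), and the mean with its other probe set, at 0.44, gave -0.26. Kmt2d, another H3K4 methyltransferase, differed by 0.37 (SE 0.28; 0.19 without knockout replicate 1 or wildtype replicate 2), and by -0.09 as the mean of its probe sets.

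Reported targets of Polycomb silencing in blood stem cells did not pass in either direction. The 12 genes had a median difference of -0.13, beside 0.07 over all genes, with 9 lower and 3 higher in knockout. Only 8 of the 12 lay above the median level. All 4 other probe sets of Ebf1 and 1 each of Pax5, Hoxa5 and Gata6 had the higher knockout mean. In Igf2bp3, read as higher, 4 other probe sets had the lower one. Cdkn2a, the cell-cycle inhibitor locus held down by BMI1, was below the median level in every array, at 3.93 in knockout and 4.07 in wildtype (difference -0.13, SE 0.22), and its neighbour Cdkn2b read 4.22 in knockout and 4.18 in wildtype; both were picked after their values were seen. Hmga2, a chromatin protein of fetal stem cells, read 8.84, 7.58 and 6.68 in the knockout arrays, against 9.73, 10.09 and 8.45 in the wildtype arrays, a difference of -1.72 (SE 0.74). Its other 3 probe sets had the higher mean in knockout, and the mean over its probe sets gave 0.50. Cdkn1c, the cell-cycle inhibitor p57 of resting stem cells, differed by -1.79 (SE 1.01; -0.87 without wildtype replicate 3). Hoxa9, a homeobox gene of stem cells, read 11.38, 10.34 and 6.02 in the knockout arrays, against 10.26, 10.65 and 11.57 in the wildtype arrays, and its difference of -1.58 (SE 1.35) was 0.03 without knockout replicate 3.

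**Figure D4:**
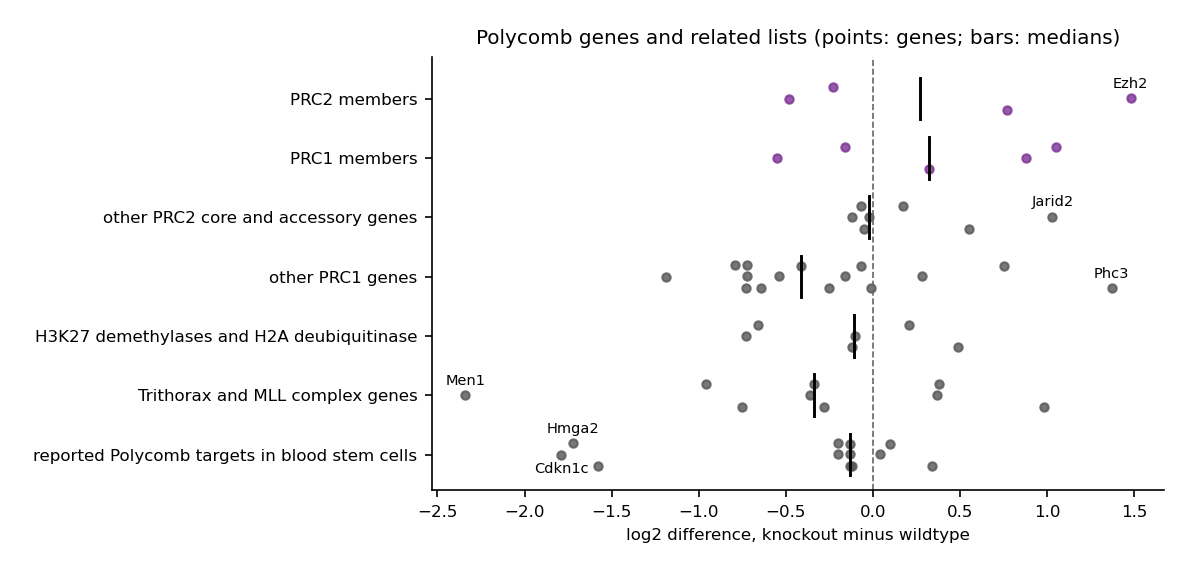
Log2 difference, knockout minus wildtype (x axis), of each gene by its brightest probe set, for the 4 PRC2 and 5 PRC1 members (purple) and 5 related lists (grey), with vertical bars at the medians. The lists spread around 0, with medians between -0.41 for other PRC1 genes and 0.32 for the PRC1 members, and Ezh2 (1.48), Phc3 (1.37) and Men1 (-2.34) lie towards the ends.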

How the data were processed

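RNA of 3 knockout and 3 wildtype samples was amplified by a whole-transcriptome method and read on an Affymetrix mouse array, per the labels' protocols. The deposited values are log2 expression, with 1 value for each probe set on each array. Per the submitters' processing notes, the tools were RMA, Affymetrix Expression Console and Partek, without versions; the log2 scale was read from the deposited values. RMA compresses differences of dim probe sets.

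Samples were grouped by title. Of 45037 probe sets, 34945 name 1 gene, 932 several and 9160 none in the platform annotation. Knockout minus wildtype was fitted over all probe sets in limma 3.58.1 (R 4.3.3; lmFit, eBayes with a mean-variance trend), adjusted by Benjamini-Hochberg with a threshold of 0.05. The fit was tested on simulated data. Members, gene lists and tests were chosen with earlier results of these data known. All 9 members are named with every probe set. From each other list the text names up to 3 genes above the median level with the smallest unadjusted p. Besides markers, Irf8 and the genes picked by correlation, any other gene was named after its values were seen. Genes in lists are read by their brightest probe set. Precision is limited by the number of arrays. Promoter windows are RefSeq's. Tables used pandas 2.3.3 and numpy 2.4.6 in Python 3.11.15, and figures matplotlib 3.10.9.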

Additional observations from a re-analysis of the deposited data

How the results depend on the processing

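Alternatives covered the unit (gene by its brightest probe set or by the mean of its probe sets), the moderation, array weights, a level filter, scaling, cross-hybridising probe sets, a replicate block and leaving out each array. No Polycomb probe set passed under any of them, the smallest adjusted p being 0.555. Over the whole table the count passing stayed at 0 except with the mean of probe sets, where it was 1 (Zfp229, chosen after its value was seen). The count at an unadjusted p under 0.05 was 2115, and 880, 904 and 1253 with brightest probe sets, means of probe sets and the level filter, which test fewer features. Among the Polycomb probe sets that count was 0, and 1 with the mean of probe sets, without trend or with the replicate block (Ezh2 each time) and 1 with quantile normalization (Ezh1 1429629_at); it ran from 0 to 3 over the fits that leave out 1 array. With arrays centred on their median or quantile normalized, the groups also did not overlap for Ezh1 1429629_at, giving 3 probe sets. Same-numbered arrays did not deviate together (correlations of -0.0139, 0.0042 and 0.0028), 0 of 6 arrays correlated best with its own number, and the block left 1952 probe sets at an unadjusted p under 0.05 and 0 called.

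Of 38 differences, 336 of 341 values kept their sign under the alternatives that use all arrays. In several of these the sign was fixed in advance. The moderation, the level filter, the replicate block, the brightest probe set and the exclusion of cross-hybridising probe sets leave a difference as it is. All 5 reversals came from the mean of probe sets. The mean of probe sets turned Ezh1 to 0.09, Asxl2 to 0.13, Bap1 to -0.36, Kmt2d to -0.09 and Hmga2 to 0.50, since other probe sets of these genes have the opposite sign. With their sign kept, it gave -0.36 for Bmi1 and -0.24 for Rbbp4. Without 1 array in turn, 14 differences took both signs. They ranged from -0.87 to 0.20 for Ezh1 1418290_a_at, -0.59 to 1.59 for Ezh1 1449023_a_at, -0.62 to 0.41 for Eed 1453830_at, -0.09 to 2.39 for Suz12 1427253_s_at, -1.26 to 0.11 for Suz12 1420022_s_at and -0.43 to 0.53 for Suz12 1449661_at. The ranges were -1.09 to 0.27 for Bmi1 1417493_at, -1.02 to 0.79 for Bmi1 1448733_at, -0.69 to 1.29 for Cbx2 1422059_at, -0.60 to 0.84 for Cbx7 1449713_at, -0.43 to 0.22 for Cbx8 1419198_at, -0.55 to 1.41 for Ring1, -1.54 to 0.18 for Kdm6a and -2.65 to 0.03 for Hoxa9. The cause was not tested. With 3 arrays a group, 95% intervals of the brighter Polycomb probe sets rest on standard errors of 0.45 to 1.32, so changes below several-fold were not detectable for most of them.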

Other observations

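Away from the brightest probe sets, 6 of 77 further probe sets of the wider Polycomb lists (7.79%) had groups without overlap, against 10.9% of all probe sets, and none passed after adjustment in limma (adjusted p = 0.906 each). Besides Asxl2 1460597_at they were Rnf2 1448041_at (3.82 ± 0.06 in knockout and 3.44 ± 0.17 in wildtype) and Gata6 1425464_at (3.51 ± 0.15 and 3.09 ± 0.18), both far below the median level, and Bcor 1452910_at, Kmt2d 1427555_at and Igf2bp3 1433731_at, which were lower in knockout by differences of -0.88, -0.55 and -0.68 (log2, SD, n = 3 each).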
